A study of Homo sapiens with 60 samples.

Results

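The mucin genes are a set of 10 genes, MUC2, MUC5AC, MUC5B, MUC1, MUC3A, MUC4, MUC12, MUC13, MUC17 and MUC20, found by matching Ensembl IDs to symbols among the 60675 genes of the count table. All 10 were present, and all 10 passed the filter on low counts that left 16890 genes for testing. RNA was sequenced from HT29 cells, a line derived from a human colon adenocarcinoma, kept for 24 h with a herbal extract or with dimethyl sulfoxide (DMSO), the vehicle. The labels give the vehicle as 0.1% DMSO and the series text gives it as 2%, and these could not be reconciled.

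Water extracts were made of the decoctions Yijin-tang and Soshiho-tang. Ethanol extracts were made of Aucklandiae Radix and Polygalae Radix, of Zizyphi Semen and Longan Arillus, and of Schisandrae Fructus and Liriopis seu Ophiopogonis Tuber. For 6 of the 8 extracts the low, medium and high doses were 20, 100 and 500 µg/mL. Polygalae Radix was given at 15.2, 76 and 380 µg/mL and Aucklandiae Radix at 14.8, 74 and 370 µg/mL, with 1 library per dose and therefore no test. Soshiho-tang had 2 libraries per dose (replicates 2 and 3), the other replicated doses had 3, and the vehicle had 3, which makes 60 libraries in all. The labels do not say that replicates came from separate cultures, so p-values measure the spread between libraries, which may be technical. Library names fall into sets, with the vehicle in a set of its own, so an effect of an extract against the vehicle cannot be told apart from a difference between library sets. Comparisons of doses of 1 extract, and of the extracts paired below, lie within a set.

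Mucins are large, heavily O-glycosylated proteins that cover mucosal surfaces. The gel-forming members are secreted: goblet cells of the colon release MUC2, whereas MUC5AC is the mucin of the gastric surface and airways and is often switched on in colorectal tumours, and MUC5B belongs to airways and salivary glands. The membrane-bound members stay on the apical surface, where MUC3A, MUC12, MUC13 and MUC17 form the glycocalyx of intestinal cells and MUC1, MUC4 and MUC20 also bind receptors or signalling proteins. In bulk RNA, fewer cells of a type and less RNA per cell cannot be told apart.

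The genes lie in clusters (GRCh38). MUC2 (chr11:1074875-1110511), MUC5AC (chr11:1157953-1201138) and MUC5B (chr11:1223066-1262172) follow one another on the plus strand of chromosome 11. MUC3A (chr7:100949555-100968346), MUC12 (chr7:100969623-101018949) and MUC17 (chr7:101020072-101058745) do the same on chromosome 7. MUC20 (chr3:195720882-195741123, plus strand) and MUC4 (chr3:195746765-195812277, minus strand) are neighbours on chromosome 3, which also holds MUC13 (chr3:124905442-124953819, minus strand). MUC1 (chr1:155185824-155192916, minus strand) stands alone on chromosome 1.

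RefSeq start sites (GRCh38.p14) were matched for 7 of the 10 members. The 250 bases upstream of the start are printed for MUC13 and MUC3A, the members with called differences, for MUC2, the goblet cell mucin, and for MUC17, the member with the widest range of levels. Capitals mark GATAA (core of GATA factor sites), TTTAT (core of CDX sites) and TGACGTCA (the cyclic AMP response element), each on either strand, and GATAA and TTTAT matches overlap in places.
MUC13 (chr3:124934752-124935001, minus strand): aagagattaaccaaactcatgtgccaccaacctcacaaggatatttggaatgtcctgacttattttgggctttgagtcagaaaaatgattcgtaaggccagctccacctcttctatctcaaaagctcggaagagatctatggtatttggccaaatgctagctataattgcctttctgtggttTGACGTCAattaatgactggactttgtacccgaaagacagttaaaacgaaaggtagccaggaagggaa
MUC3A (chr7:100949284-100949533, plus strand): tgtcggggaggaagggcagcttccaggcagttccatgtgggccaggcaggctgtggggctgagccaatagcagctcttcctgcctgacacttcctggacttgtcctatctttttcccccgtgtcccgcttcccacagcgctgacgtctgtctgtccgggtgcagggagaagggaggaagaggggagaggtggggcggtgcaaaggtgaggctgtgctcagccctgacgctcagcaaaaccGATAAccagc
MUC2 (chr11:1074624-1074873, plus strand): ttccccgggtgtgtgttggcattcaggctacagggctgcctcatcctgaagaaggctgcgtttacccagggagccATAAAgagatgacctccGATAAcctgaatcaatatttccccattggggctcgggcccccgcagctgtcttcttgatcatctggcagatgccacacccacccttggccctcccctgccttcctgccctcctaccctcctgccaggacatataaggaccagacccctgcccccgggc
MUC17 (chr7:101019831-101020080, plus strand): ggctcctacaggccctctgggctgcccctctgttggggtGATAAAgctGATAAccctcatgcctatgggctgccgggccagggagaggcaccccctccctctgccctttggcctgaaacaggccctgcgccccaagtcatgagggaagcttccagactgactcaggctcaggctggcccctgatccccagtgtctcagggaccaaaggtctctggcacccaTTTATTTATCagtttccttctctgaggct
The MUC13 window held TGACGTCA, a sequence found in 1.65% of the 35116 upstream windows of the same length, and no other member with a window held it. GATAA was found in the windows of MUC2, MUC3A and MUC17 and in 20.4% of all windows. TTTAT was found in those of MUC1, MUC2, MUC12 and MUC17 and in 32.7% of all windows. The GC box GGGCGG (MUC1, MUC3A and MUC4; 42.6% of all windows), TATAAA (MUC1 and MUC12; 10.7%) and the aryl hydrocarbon receptor core GCGTG (MUC4 and MUC12; 32.2%) were also searched on both strands. These are matches of letters only. The MUC13 window lies upstream of a RefSeq start but inside the gene interval given above for MUC13.

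Each library held 18161717 to 35128954 expected counts (median 25406509). Of 12 colonic epithelium markers, 11 exceeded 1 CPM in the vehicle: KRT8, KRT18, EPCAM, CDH1 and LGALS4 were high, GPA33 and CDX2 averaged 3.12 and 4.54 CPM, and CDX1 averaged 0.862 CPM. Of 11 leukocyte and erythroid markers, CD74 alone exceeded 1 CPM in the vehicle (4.18 CPM). Among 12 markers of fibroblasts, endothelium and hepatocytes, SERPINA1 was high (342 CPM), and COL1A1 and PECAM1 averaged 1.48 and 1.22 CPM. The others were below 1 CPM in the vehicle, with ALB at 0.0116 CPM. A pair of libraries stood apart. In Yijin-tang low replicate 2, ribosomal protein genes took 10.7% of counts, against 4.63% to 5.4% in the vehicle, and long genes were depleted (a slope of -0.269 log2 units per doubling of exon length, against -0.015 to -0.011 in the vehicle). In Soshiho-tang high replicate 3, all 11 leukocyte and erythroid markers were at their highest and none was at 0, with a sum of 37.2 CPM, against 4.08 to 5.45 CPM in the vehicle. The calls of members that rest on either library are given with and without it. Leaving out both leaves 1 Soshiho-tang high library, whose spread is then taken from the other groups.

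Levels below are CPM values, counts scaled to a common library total, after TMM scaling, which corrects library totals for composition. MUC5AC was the most abundant mucin transcript, at 261.0 ± 73.5 CPM in the vehicle (SD, n = 3), and made up 51.5% of the summed vehicle CPM of the 10 genes. MUC13 averaged 104.9 ± 1.98 CPM, MUC20 63.9 ± 4.92 CPM and MUC3A 33.4 ± 6.04 CPM. These are the members on which most counts rest. MUC2 averaged 23.6 ± 8.93 CPM, MUC12 10.9 ± 2.66 CPM and MUC17 6.29 ± 0.862 CPM.

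MUC4 was the only member below 1 CPM in the vehicle, at 0.455 ± 0.141 CPM, and it stayed below 1 CPM in all 60 libraries (0.159 to 0.933 CPM). MUC1 averaged 1.185 ± 0.151 CPM in the vehicle and was below 1 CPM in 8 of the 60 libraries. MUC5B averaged 1.184 ± 0.480 CPM there. Its vehicle libraries had 1.53, 0.636 and 1.39 CPM, so 1 of the 3 lay below that level, as did 13 of all 60 libraries. The vehicle value of MUC4 rests on 9 to 18 expected counts per library.

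Per kilobase of exon, the order of vehicle levels changed, because mucin transcripts differ in length. MUC13 led with 29.98 ± 0.565 CPM per kb. MUC20 (15.05 ± 1.16) and MUC5AC (14.96 ± 4.21) followed at levels that did not differ beyond their spread. MUC3A had 2.94, MUC2 1.86, MUC12 0.636, MUC17 0.432, MUC1 0.251, MUC5B 0.0637 and MUC4 0.0213 CPM per kb.

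**Figure D1:**
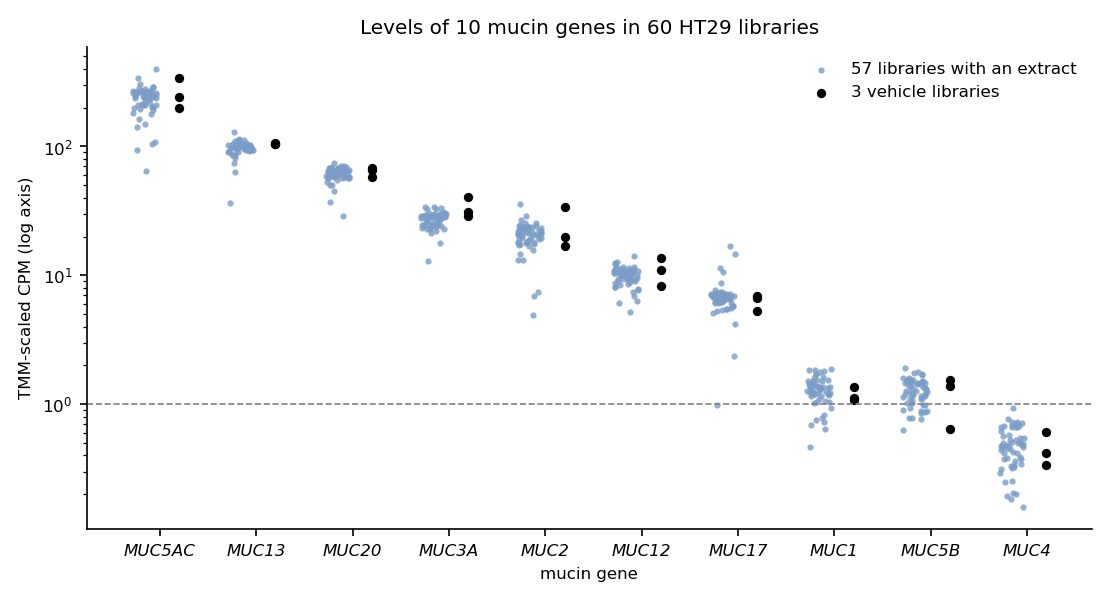
TMM-scaled CPM (log axis) of the 10 mucin genes in the 57 libraries with an extract (blue, left of each pair) and the 3 vehicle libraries (black, right), ordered by vehicle mean. MUC4 lies below the dashed line at 1 CPM in every library, and MUC17 spans the widest range, from 0.979 to 16.9 CPM.

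The counts of some members are uncertain because reads can be shared with a copy or an overlapping gene. MUC20 had fractional expected counts in all 60 libraries, as did its pseudogene MUC20P1 (26.3 CPM in the vehicle) and the overlapping transcript MUC20-OT1, and the log2 levels of MUC20 and MUC20P1 correlated across the 60 libraries at r = 0.942 as a description. MUC12 and its antisense gene MUC12-AS1 had fractional counts in 55 libraries, MUC17 in 23, and MUC5B and MUC5B-AS1 in 22. The strand setting of the counting is not given in the sources used here. MUC2, MUC1, MUC4 and MUC13 had whole counts throughout.

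Across the 19 groups with replicates the ratio of the highest to the lowest group mean ran from 1.35 for MUC20 to 2.35 for MUC1. It was 1.42 for MUC13, 1.57 for MUC5B, 1.6 for MUC3A and 1.61 for MUC12. For MUC5AC it was 1.81, for MUC2 1.84, for MUC4 1.9 and for MUC17 2.11. For most members the libraries of groups next to each other in order of mean overlapped, which that ordering makes likely. Against the vehicle, 18 extract doses and 10 members gave 180 comparisons. By edgeR's quasi-likelihood test with Benjamini-Hochberg adjustment over all genes of a comparison (adjusted p under 0.05), 0 of the 180 were called higher, where 0.878% of all gene comparisons were. Of the same 180, 3 were called lower, where 0.504% of all gene comparisons were. At an unadjusted p under 0.05, 1 was higher and 18 were lower, and DESeq2 called 0 higher and 4 lower. With the 2 libraries that stood apart left out, 1 was called higher and 9 lower, where 2.17% and 2.07% of all gene comparisons were. Leaving out vehicle replicate 1 or Soshiho-tang high replicate 3 alone reduced the lower calls to 1.

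MUC13, a membrane mucin with EGF-like domains on the surface of gut epithelium, was called lower with Soshiho-tang high. With Soshiho-tang at the high dose its libraries held 80.9 and 74.2 CPM, against 103.6, 103.9 and 107.2 CPM in the vehicle. Both lay below every vehicle library and below every other library of a replicated group except Yijin-tang low replicate 2. Between Soshiho-tang high and the vehicle 33.7% of all genes did not overlap. MUC13 fell by 0.44 on the log2 scale (SE 0.096; edgeR adjusted p = 0.00181), in a comparison in which 3.76% of genes were called lower. Leaving out both libraries that stood apart gave -0.37 (adjusted p = 6.85e-05), and without Soshiho-tang high replicate 3 alone it was -0.361 (adjusted p = 0.0994). Both of these values rest on a lone Soshiho-tang high library that is assumed to vary like the other groups.

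Soshiho-tang also gave the single call of a member between doses. The low-dose libraries had 100.6 and 101.6 CPM of MUC13 and the medium-dose libraries 101.9 and 96.3 CPM, both above the high-dose values of 80.9 and 74.2 CPM. Between the high and the low dose 47.6% of all genes did not overlap. The high dose was lower than the low dose by 0.38 on the log2 scale, an estimate of -0.383 (SE 0.104; edgeR adjusted p = 0.0174), where 3.03% of genes were called lower. The adjusted p was 0.0828 with offsets for GC content and length and 0.0712 when the groups compared were fitted alone. It was 0.0864, 0.269 and 0.129 without Soshiho-tang low replicate 2, high replicate 3 or low replicate 3, each left out alone, which leaves 1 library in that group. Over all 6 extracts, the 60 comparisons of high with low dose gave 0 members higher and 1 lower, where 1.73% and 2.87% of all gene comparisons were called. At an unadjusted p under 0.05 there were 3 higher and 3 lower, and DESeq2 called 0 and 1. With the 2 libraries that stood apart left out, 3 were called higher and 2 lower, where 1.6% and 0.854% of all gene comparisons were.

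In other extracts MUC13 stood below the vehicle by smaller amounts. Its libraries did not overlap those of the vehicle in 12 of the 18 comparisons, in which 17.1% to 33.7% of all genes did not overlap, and its estimate was below 0 in 16. With Schisandrae Fructus the low-dose libraries had 99.2, 99.9 and 95.6 CPM, the medium-dose libraries 98.3, 96.0 and 91.0 CPM and the high-dose libraries 92.2, 86.1 and 86.0 CPM. All 9 lay below the vehicle, and the high-dose libraries lay below every low-dose library. Between these doses 13.1% of all genes did not overlap. MUC13 was not called between them by edgeR, with or without the 2 libraries that stood apart. The high dose gave an estimate of -0.25 against the vehicle (SE 0.085; edgeR adjusted p = 0.22), which became a call without the 2 libraries that stood apart (-0.250; adjusted p = 0.000325; 6.18% of genes called). With only these groups fitted it was -0.244 (edgeR adjusted p = 0.0724).

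With Zizyphi Semen MUC13 had 113.9, 112.2 and 104.4 CPM at the low dose, 99.2, 100.9 and 106.0 CPM at the medium dose and 90.41, 95.02 and 94.94 CPM at the high dose. The high-dose libraries lay below all low-dose libraries and all vehicle libraries, where 14.5% and 17.1% of all genes did not overlap. High against low dose gave -0.237 (SE 0.085; edgeR adjusted p = 1.0), in a comparison with 0.0533% of genes called. Leaving out the 2 libraries that stood apart gave -0.238 (adjusted p = 0.00447; 0.242% of genes called), and with only these groups fitted it was -0.235 (adjusted p = 0.025). High-dose against low-dose estimates of MUC13 were -0.051 for Liriopis seu Ophiopogonis Tuber, -0.044 for Longan Arillus and 0.098 for Yijin-tang. For Yijin-tang the low-dose libraries had 104.4, 63.7 and 99.7 CPM, the second being one that stood apart, and the estimate turned to -0.092 (adjusted p = 0.541) when both such libraries were left out.

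**Figure D2:**
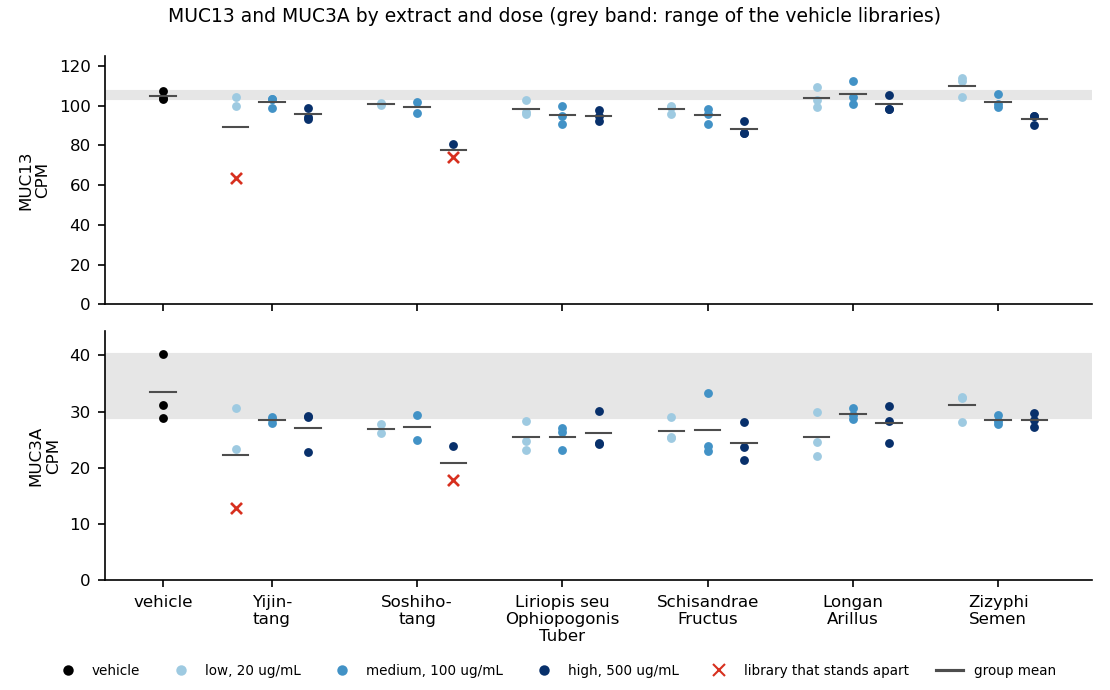
TMM-scaled CPM of MUC13 and MUC3A in each library of the vehicle and of 6 extracts, doses from low to high; bars are group means, the grey band is the range of the 3 vehicle libraries, and red crosses are the 2 libraries that stood apart. Soshiho-tang high (74.2 and 80.9 CPM of MUC13) lies below the other groups, apart from the crossed Yijin-tang low library at 63.7 CPM.

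MUC3A, a membrane mucin of the intestinal brush border, was called lower against the vehicle in 2 groups. Soshiho-tang high had 23.9 and 17.9 CPM, against 40.3, 28.9 and 31.1 CPM in the vehicle, with no overlap, where 33.7% of all genes did not overlap. MUC3A fell by 0.69 on the log2 scale (SE 0.193; edgeR adjusted p = 0.0182). That call was lost without Soshiho-tang high replicate 3 (-0.47; adjusted p = 0.38) and without vehicle replicate 1 (-0.529; adjusted p = 0.128). Yijin-tang low had 23.4, 12.8 and 30.7 CPM, a range that overlapped the vehicle, and the estimate was -0.58 (SE 0.17; edgeR adjusted p = 0.0252; 3.49% of genes called lower). That value rests on replicate 2, which stood apart: without it the estimate was -0.311 (adjusted p = 0.292).

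Among the 19 groups with replicates the vehicle had the highest MUC3A mean. All 18 estimates against the vehicle were below 0, from -0.107 to -0.686 with a median of -0.32 on the log2 scale, and they share the same 3 vehicle libraries. Of these libraries, replicate 1 (40.3 CPM) was the highest of all 60 and the other vehicle libraries lay within the range of the extract libraries. When the 2 libraries that stood apart were left out, MUC3A was called lower with Schisandrae Fructus high (-0.468; edgeR adjusted p = 0.0161) and Liriopis seu Ophiopogonis Tuber low (-0.399; adjusted p = 0.0436). No MUC3A difference between doses of 1 extract was called in either setting. With only the groups compared fitted, the edgeR adjusted p was 0.14 with Schisandrae Fructus high and 0.187 with Liriopis seu Ophiopogonis Tuber low.

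MUC2, the gel-forming mucin of goblet cells, was not called over the 54 replicated libraries by edgeR, and 1 of its 18 comparisons with the vehicle had an unadjusted p under 0.05. Soshiho-tang high had 19.7 and 7.44 CPM, against 33.7, 17.0 and 20.0 CPM in the vehicle. Replicate 2 lay within the vehicle range, and replicate 3, the library with leukocyte and erythroid transcripts, lay below it. The estimate was -0.83 (SE 0.328; edgeR adjusted p = 0.122), and it moved between -1.665 and -0.247 as single libraries were left out. Without the 2 libraries that stood apart it was -0.262 (adjusted p = 0.648). It passed the threshold with no filter on low counts (adjusted p = 0.0244) and with GC and length offsets (adjusted p = 0.0238). In the other replicated groups the MUC2 mean lay between 16.99 CPM (Yijin-tang low) and 24.9 CPM (Schisandrae Fructus medium).

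MUC5AC, the gastric and airway gel-forming mucin, had 399.8 and 180.7 CPM with Soshiho-tang high, against 342.5, 199.5 and 241.1 CPM in the vehicle. Replicate 2 lay above and replicate 3 below every vehicle library. The estimate was 0.15 (SE 0.324; 95% interval -0.48 to 0.79; edgeR adjusted p = 0.883). MUC5B, the other secreted member, gave estimates against the vehicle from -0.285 to 0.374, none with an unadjusted p under 0.05.

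Among the 19 groups with replicates, Longan Arillus at the low dose had the lowest mean of MUC5AC, MUC12 and MUC17. MUC5AC had 108.9, 191.4 and 180.2 CPM there, against 342.5, 199.5 and 241.1 CPM in the vehicle. MUC17, a brush border mucin, had 2.35, 4.18 and 5.07 CPM, against 6.93, 5.31 and 6.63 CPM in the vehicle. All Longan low libraries lay below all vehicle libraries for both genes, in a comparison in which 14.1% of all genes did not overlap. MUC12, a further brush border mucin, had 6.15, 8.81 and 6.87 CPM, against 13.5, 8.19 and 11.0 CPM in the vehicle, with an overlap.

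None of these was called over all 54 replicated libraries: the estimates were -0.705 for MUC5AC (SE 0.293; edgeR adjusted p = 0.525), -0.707 for MUC17 (SE 0.276; adjusted p = 0.48) and -0.58 for MUC12 (SE 0.191; adjusted p = 0.35). Without the 2 libraries that stood apart, neither of which is in these groups, the estimates were -0.703, -0.709 and -0.578. All 3 were then called lower, with edgeR adjusted p of 0.0254, 0.00343 and 0.0232 and 4.73% of genes called in that comparison. With only these groups fitted, the adjusted p was 0.527 for each of the 3. The medium dose of Longan Arillus had 6.75, 7.11 and 6.70 CPM of MUC17 and the high dose 8.70, 6.93 and 6.59 CPM. High against low dose of MUC17 gave 0.943 (SE 0.275; edgeR adjusted p = 0.894), and 0.949 (adjusted p = 4.8e-05; 5.45% of genes called) without the 2 libraries. High against low dose of MUC5AC gave 0.624 (adjusted p = 0.894), and 0.626 (adjusted p = 0.0453) without them. With only the Longan high and low groups fitted, the edgeR adjusted p was 0.141 for MUC17 and 0.19 for MUC5AC. The Longan low libraries had slopes on exon length of -0.055, -0.025 and -0.039, against -0.015 to -0.011 in the vehicle. With offsets for GC content and length, the estimates against the vehicle were -0.622 for MUC5AC, -0.613 for MUC17 and -0.472 for MUC12. Their edgeR adjusted p was 0.296, 0.292 and 0.277. High against low dose was then 0.835 for MUC17 (adjusted p = 0.373) and 0.492 for MUC5AC (adjusted p = 0.885). The part of exon length alone was not tested.

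**Figure D3:**
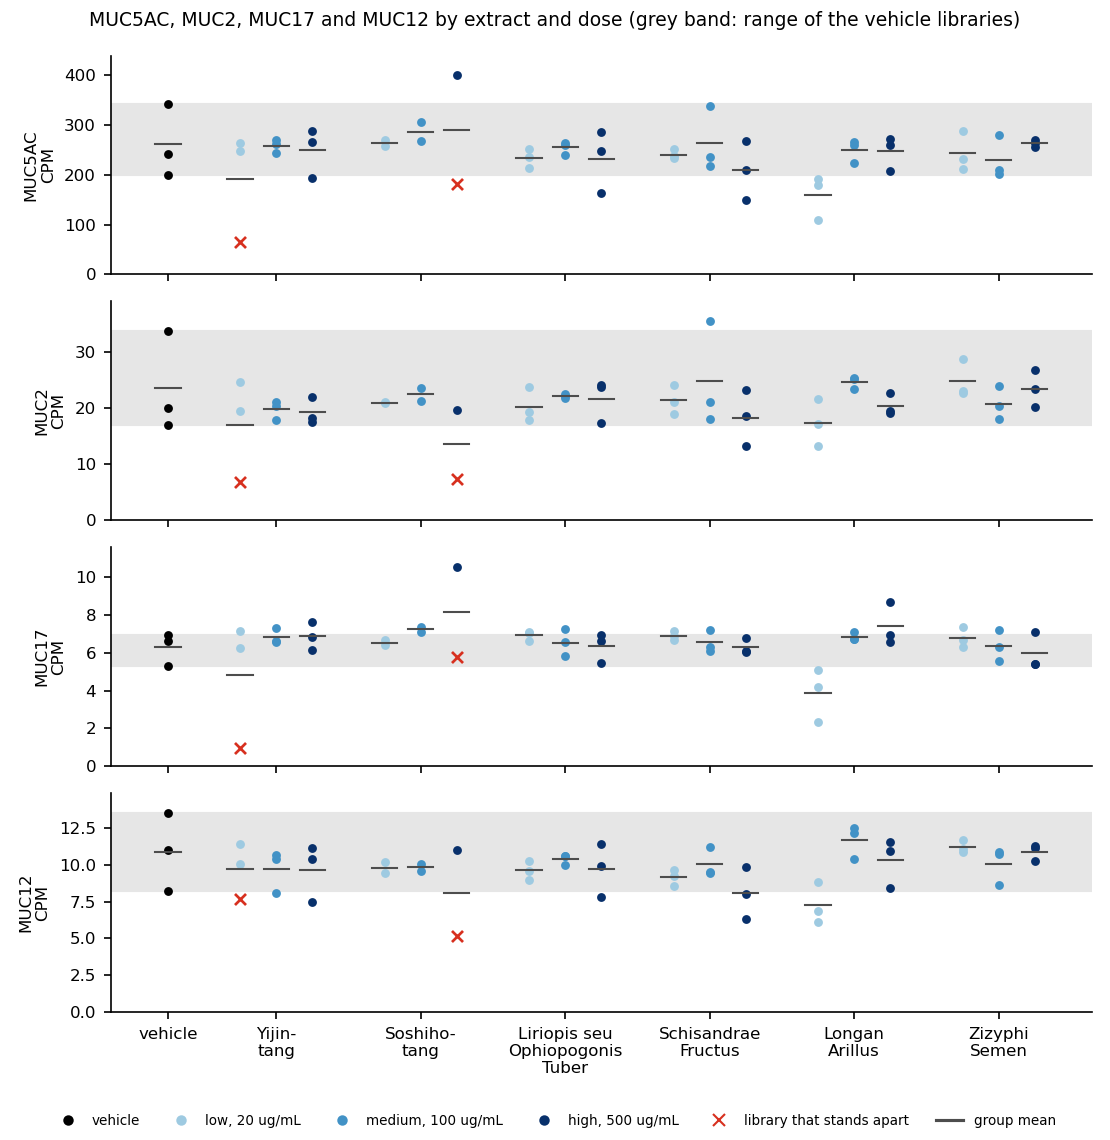
TMM-scaled CPM of MUC5AC, MUC2, MUC17 and MUC12 in each library of the vehicle and of 6 extracts, doses from low to high; bars are group means, the grey band is the vehicle range and red crosses are the libraries that stood apart. The Longan Arillus low libraries lie under the vehicle band for MUC5AC and MUC17, and the Soshiho-tang high libraries of MUC5AC lie on either side of it.

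MUC17 with Soshiho-tang high depended on which library was read. Replicate 2 had 10.5 CPM and replicate 3 had 5.79 CPM, against 6.93, 5.31 and 6.63 CPM in the vehicle. Replicate 2 exceeded every other replicated library and replicate 3 lay within the vehicle range. The estimate was 0.35 (SE 0.285; edgeR adjusted p = 0.58). Without the 2 libraries that stood apart, which leaves a lone Soshiho-tang high library whose spread is taken from the other groups, it was 0.743 (adjusted p = 0.00399). Left out alone, the Soshiho-tang high libraries turned its sign, between -0.121 and 0.755.

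Between extracts at the high dose, 30 comparisons (Yijin-tang against Soshiho-tang, Schisandrae Fructus against Liriopis seu Ophiopogonis Tuber, Zizyphi Semen against Longan Arillus) gave 0 called members by edgeR, where 1.28% of all gene comparisons were called. At an unadjusted p under 0.05 there was 1 in each direction, and DESeq2 called 1. That one was MUC13, with 99.04, 94.55 and 93.23 CPM in Yijin-tang high and 80.9 and 74.2 CPM in Soshiho-tang high. The groups did not overlap, where 30.2% of all genes did not, with an estimate of 0.302 (SE 0.096; edgeR adjusted p = 0.0709; DESeq2 adjusted p = 0.0358). It was called by edgeR without the 2 libraries that stood apart (0.239; adjusted p = 0.0205), together with MUC17 lower in Yijin-tang high (-0.613; adjusted p = 0.0385), where 1.8% of all gene comparisons were called. Both of those values again rest on 1 Soshiho-tang high library.

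MUC1, a membrane mucin of glandular epithelia, had 1.07, 0.821 and 0.468 CPM with Schisandrae Fructus high, against 1.36, 1.09 and 1.11 CPM in the vehicle. The groups did not overlap, where 19.8% of all genes did not, with an estimate of -0.595 (SE 0.254; edgeR adjusted p = 0.43). Soshiho-tang low, at 1.81 and 1.88 CPM, had the highest MUC1 mean and an estimate of 0.633 (SE 0.255; adjusted p = 0.628). MUC20, which binds the MET receptor, and MUC4, a partner of ERBB2, gave no call, with estimates against the vehicle from -0.33 to 0.097 for MUC20 and from -0.515 to 0.408 for MUC4.

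The ethanol extracts with 1 library per dose are described with 95% Wilson intervals, which cover counting error only. Polygalae Radix had 240.9, 141.0 and 104.8 CPM of MUC5AC at the low, medium and high dose (intervals 235.0 to 247.0, 136.0 to 146.0 and 101.0 to 109.0), and the vehicle ranged from 199.5 to 342.5 CPM. MUC17 ran the other way, at 6.20, 11.4 and 14.6 CPM (5.25 to 7.32, 10.1 to 12.7 and 13.2 to 16.1), and the vehicle ranged from 5.31 to 6.93 CPM. The medium-dose and high-dose values of MUC17 exceeded all 54 replicated libraries. The high-dose ratio to the vehicle mean was 1.21 on the log2 scale for MUC17 and -1.28 for MUC5AC. These were the only members past a 2-fold difference at that dose, where 1.35% of genes were higher than the vehicle mean by 2-fold or more and 2.55% were lower by as much.

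Polygalae Radix gave smaller differences for the remaining members. MUC2 had 22.8, 17.0 and 14.6 CPM at the low, medium and high dose. MUC13 had 109.6, 128.8 and 94.0 CPM, and its medium-dose value was the highest of all 60 libraries. MUC3A, at 28.9, 34.0 and 34.0 CPM, stayed within the vehicle range. The summed CPM of the colonic epithelium markers was 8749 at the high dose, against 12590 to 14680 in the vehicle, with VIL1 at 53.1 CPM against a vehicle mean of 163.5 CPM, and the part of these in the mucin values was not tested.

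With Aucklandiae Radix no member was past a 2-fold difference at the low or medium dose, where 0.669% and 0.782% of genes were higher by that much and 1.27% and 1.66% were lower. MUC2 had 20.8, 15.8 and 4.88 CPM at the low, medium and high dose, and the last (4.07 to 5.86) was the lowest of all 60 libraries. MUC13 had 102.8, 86.2 and 36.5 CPM, again the lowest of all libraries at the high dose (34.2 to 39.1). MUC5AC had 202.9, 198.7 and 93.4 CPM. All 3 genes were thus more than 2-fold below the vehicle mean at the high dose, with log2 ratios of -2.19, -1.52 and -1.45.

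MUC17 had 5.25, 6.27 and 16.9 CPM with Aucklandiae Radix, the last (15.3 to 18.6) being the highest of all 60 libraries and 1.42 above the vehicle mean on the log2 scale. MUC12 had 9.87, 9.01 and 14.1 CPM, also the highest at the high dose. MUC3A, which lies beside both genes, had 28.7, 28.1 and 26.4 CPM. MUC17 and MUC12 were thus above the vehicle at the dose at which MUC2, MUC13 and MUC5AC were below it. Of all 60 libraries, this one had the highest slopes on exon length (0.034) and on GC content (0.097). Its share of ribosomal protein genes, 3.47% of counts, was the lowest. The part of these in the mucin values was not tested. MUC20 had 67.1, 57.1 and 37.0 CPM. At this dose 7.37% of genes were higher than the vehicle mean by 2-fold or more and 9.91% were lower by as much, so the counts of 1 and 3 members are read against a wide background.

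**Figure D4:**
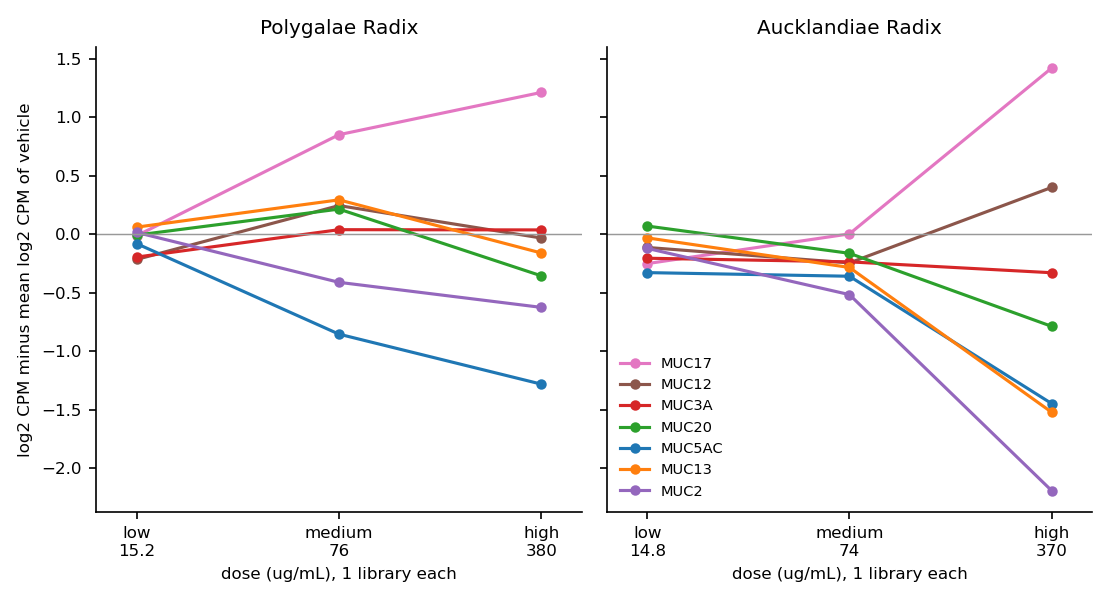
Log2 CPM of 7 mucin genes minus their mean log2 CPM in the vehicle for Polygalae Radix (left) and Aucklandiae Radix (right), 1 library per dose, low to high. MUC17 ends at 1.21 and 1.42, and MUC5AC at -1.28 and -1.45.

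Replicates differed from each other far more for some mucins than for others. Over 51 libraries (leaving out the libraries that stood apart and the Soshiho-tang high library that was then alone), the SD of log2 levels within groups was 0.268 for MUC2 and 0.262 for MUC5AC, against 0.053 for MUC13. Among genes within 2-fold of their level, 0.394% had a larger SD than MUC2 and 0.2% a larger SD than MUC5AC. For MUC3A (SD 0.168) that share was 1.49%, for MUC12 (SD 0.204) 3.9%, for MUC17 (SD 0.195) 10.5% and for MUC13 65.1%. MUC13 was thus close to the usual spread at its level, and MUC2 and MUC5AC were not.

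The deviations of MUC2 and MUC5AC from their group means went together. Pearson's r over 51 libraries was 0.83 (Spearman's rho 0.78), and 0.8 without the 2 libraries farthest on MUC2. MUC5AC and MUC12, on different chromosomes, gave r = 0.82, MUC2 and MUC3A gave 0.72, and MUC3A and MUC20 gave 0.7. MUC5AC and MUC13 gave 0.19. These are descriptions of libraries that share sequencing depth and RNA handling. The same deviations correlated with the libraries' slope on GC content at 0.48 for MUC2, 0.41 for MUC5AC and -0.07 for MUC13, and with the slope on exon length at 0.56 for MUC17 and 0.45 for MUC12 (52 libraries), and the part of these in the mucin values was not tested.

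**Figure D5:**
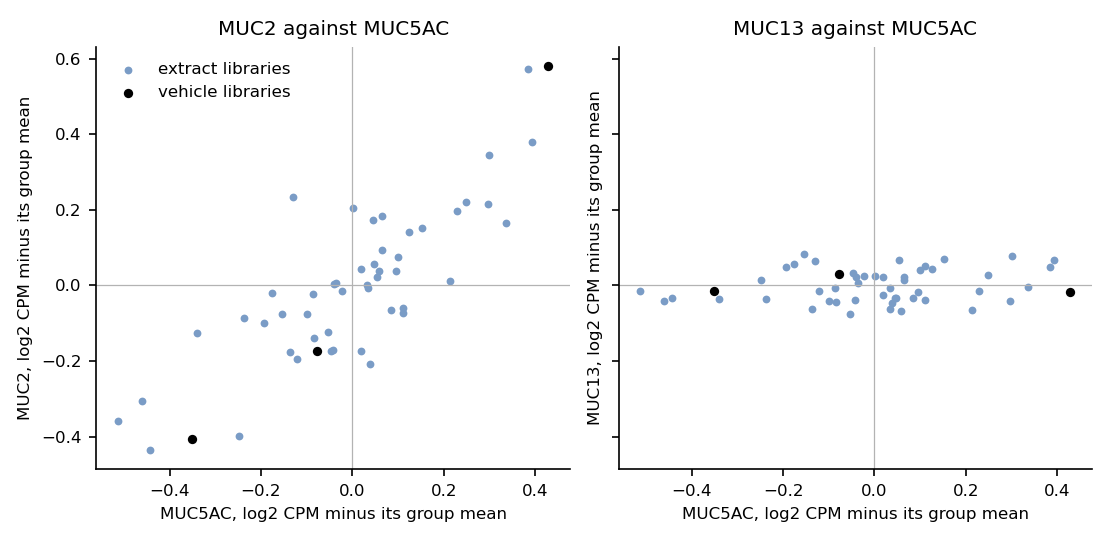
Log2 CPM minus the group mean in 51 libraries, with MUC2 (left) and MUC13 (right) on the vertical axis and MUC5AC on the horizontal axis; black points are the vehicle libraries. MUC2 follows MUC5AC (r = 0.83), and MUC13 stays close to 0 across the range of MUC5AC (r = 0.19).

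The genes most like each member were ranked by Pearson's r, among 10044 genes whose mean level reached 5 CPM. Over the means of 19 groups, including Yijin-tang low, MUC13 was most like IL13RA1 (0.9), UBE2H (0.9) and VIL1 (0.89), MUC3A like CD44 (0.93), HGSNAT and CALM3, and MUC2 like TP53I11 (0.94) and MKNK2. MUC5AC was most like PTPN23, SON and POLR2A (0.91 each), MUC17 like ARHGAP32 (0.95), GPATCH2L and IGSF9B, and MUC20 like ADD1 (0.96), TRIM29 and UBA1. MUC12 was most like SLC25A23 (0.79), MUC2 (0.78) and BPTF, MUC1 like TUFT1 (0.74), GNA15 and HHLA2, and MUC5B like GLIS2 (0.69), SH3BP5L and ERBB2. Within groups, over 51 libraries, MUC5AC was most like HSPG2 (0.89), EP400 (0.88) and POLR2A (0.88), and MUC2 like POLR2A (0.86) and KIAA1522 (0.84). POLR2A, the large subunit of RNA polymerase II, was thus among the nearest genes of both.

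Other genes of mucin production were examined with Soshiho-tang high first. Goblet cells assemble mucins with AGR2 and ERN2 in the endoplasmic reticulum and release the granules through SYTL2 and other exocytosis proteins. Of 25 tested genes of assembly, packing and secretion, 2 were called higher and 4 lower against the vehicle, with a median log2 fold change of -0.31 beside -0.00 for all genes tested where 4.17% of all genes were called higher and 3.76% lower. BCAS1 fell to 35.9 ± 2.79 CPM with Soshiho-tang high (n = 2), against a vehicle mean of 69.8 CPM (log2 fold change -0.96; edgeR adjusted p = 1.68e-15). SYTL2 fell to 22.5 CPM, against 43.1 CPM in the vehicle (-0.94; adjusted p = 1.11e-05), and AGR2 to 140.7 CPM, against 208.2 CPM (-0.56; adjusted p = 0.00329). UNC13D and SEC23B, of exocytosis and vesicle coats, were higher by 0.41 and 0.23. Leaving out the 2 libraries that stood apart leaves a lone Soshiho-tang high library. The estimates were then -0.88 for BCAS1, -0.85 for SYTL2, -0.67 for AGR2, 0.55 for UNC13D and 0.2 for SEC23B. The lists of genes of mucin production held 37, 25, 26, 20 and 6 tested genes, with some overlap. Over all of these lists, 24 genes were called with Soshiho-tang high against the vehicle, beside 7.93% of all genes. Without those libraries 37 were called, beside 12.4% of all genes.

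Of 37 tested enzymes and transporters of mucin-type O-glycosylation, 4 were called higher and 5 lower with Soshiho-tang high against the vehicle (median 0.03). In this comparison 4.17% of all genes were called higher and 3.76% lower. The sialyltransferase ST3GAL4 rose to 165.8 CPM with Soshiho-tang high, against 89.7 CPM in the vehicle (0.89; edgeR adjusted p = 1.13e-15), and ST6GALNAC4 rose to 46.1 CPM, against 32.0 CPM (0.53; adjusted p = 3.26e-08). ST6GAL1 fell to 3.74 CPM, against 7.08 CPM (-0.91; adjusted p = 4.65e-05), and ST3GAL2 to 38.8 CPM, against 51.9 CPM (-0.42; adjusted p = 2.75e-06). The listed sialyltransferases thus differed in both directions, with or without ST6GAL1, which is not specific to mucin-type O-glycans. FUT2, the secretor fucosyltransferase, fell by 0.4 (an estimate of -0.4; edgeR adjusted p = 0.0119). That call was lost when the libraries that stood apart were left out (-0.33), which leaves a lone Soshiho-tang high library. GALNT14, which starts O-glycans, rose by 0.36 (edgeR adjusted p = 6.36e-05).

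Of 26 tested transcription factors of mucin genes, 1 was called higher (KLF4, 0.37; edgeR adjusted p = 0.0488) and 5 lower with Soshiho-tang high against the vehicle. In this comparison 4.17% of all genes were called higher and 3.76% lower. CREB3L1, a membrane-bound factor of secretory cells, fell to 108.7 ± 30.4 CPM with Soshiho-tang high (n = 2), against 199.9 CPM in the vehicle (-0.88; adjusted p = 3.61e-05), and FOXA2, a factor of goblet cell differentiation, to 10.5 CPM, against 16.1 CPM (-0.62; adjusted p = 0.000291). Of 20 tested partners and sheddases of membrane mucins, 2 were higher and 1 lower, beside the same shares of all genes. ICAM1, a ligand of MUC1, rose to 9.66 CPM, against 4.83 CPM (1.0; adjusted p = 2.65e-05), MET to 643.3 CPM, against 462.5 CPM (0.48; adjusted p = 0.00298), and PDZK1, a scaffold protein of the brush border, fell to 7.91 CPM, against 12.5 CPM (-0.67; adjusted p = 4.11e-07). Of 13 other mucins and mucin-like genes, 6 could be tested (median -0.04).

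Within the library set, Soshiho-tang high against low gave differences in the same direction for BCAS1 (-0.89), SYTL2 (-0.89), ST3GAL4 (0.75), ST6GAL1 (-0.77), CREB3L1 (-0.7), ICAM1 (0.84), MET (0.47) and PDZK1 (-0.57) with edgeR adjusted p from 2.07e-13 to 0.0103. FCGBP, a mucus protein bound to MUC2, fell to 9.81 CPM at the high dose, against 18.1 CPM at the low dose (-0.9; adjusted p = 0.0218). This gene was not called against the vehicle. AGR2, UNC13D, SEC23B and KLF4, called against the vehicle, were not called between these doses over the 54 replicated libraries. Of all genes, 6.29% were called between the high and the low dose, as were 24 list genes. When the 2 libraries that stood apart were left out, 7.85% of all genes and 30 list genes were called, and CREB3L1 was not (-0.43; adjusted p = 0.0627). Both comparisons share the high-dose libraries. Yijin-tang high against the vehicle gave 4 calls among these lists: BCAS1 (-0.39), ICAM1 (0.77), ST3GAL2 (-0.24) and ST3GAL4 (0.2), where 1.05% of all genes were called. With the 2 libraries that stood apart left out there were 20, and 7.16% of all genes. Schisandrae Fructus high gave FOXA2 (-0.46; edgeR adjusted p = 0.0187) and ST3GAL2 (-0.23; adjusted p = 0.0256), in a comparison with 0.693% of genes called. With the same libraries left out that comparison gave 8 such genes, beside 6.18% of all genes.

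In the single Aucklandiae Radix high library, 12 of 25 assembly and secretion genes were at least 2-fold below the vehicle mean and 2 at least 2-fold above it (median log2 ratio -0.75, beside -0.01 for all genes), where 9.91% and 7.37% of all genes were. AGR2 had 101.9 CPM, against 208.2 CPM in the vehicle, FCGBP 2.72 CPM, against 15.1 CPM, and AGR3 0.721 CPM, against 7.18 CPM. MUC16, another membrane mucin, had 5.81 CPM, against 1.17 CPM, and MUCL3 10.0 CPM, against 3.19 CPM. Of the 12 colonic epithelium markers, 2 were at least 2-fold above the vehicle mean in this library and 3 at least 2-fold below it (median log2 ratio 0.05). KRT20, of differentiated colon cells, had 715.4 CPM, against 239.9 CPM in the vehicle, and CEACAM5 21.0 CPM, against 6.79 CPM. The intestinal transcription factors CDX1 and CDX2 had 0.0849 and 1.19 CPM, against 0.862 and 4.54 CPM in the vehicle, and GPA33 had 0.170 CPM, against 3.12 CPM. None of the 12 was at 0, and their part in the mucin values was not tested.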

How the data were processed

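RNA sequencing of HT29 cells gave 60 libraries. Per the submitters' processing notes, the tools were RSEM 1.3.3, STAR 2.7.3a, Trim Galore 0.6.5 and FastQC 0.11.9, with GRCh38 (hg38); the roles and order of these tools, the annotation release and the strand setting are not given in the sources used here. The authors deposited RSEM expected counts per gene, of which 89.9% were whole (within 1e-09), and these were rounded to whole numbers for testing.

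Genes passing filterByExpr (16890) were scaled by TMM (factors 0.899 to 1.06) and tested with edgeR 4.0.16 (R 4.3.3, limma 3.58.1), using the quasi-likelihood test in 1 model of the 54 libraries in 19 groups with replicates (biological coefficient of variation 9.71%). Adjusted p-values are Benjamini-Hochberg over all genes of a comparison, with a threshold of 0.05, and the standard error is the log2 fold change over the root of F. There were 27 comparisons, 18 with the vehicle, 6 of high with low dose and 3 between extracts of a library set at the high dose. Log2 CPM used a prior count of 2. Single libraries were given 95% Wilson intervals and read at a 2-fold difference; intervals cover counting error only, since reads carry no molecular identifiers. Spread and covariation used deviations of log2 CPM from the group mean. Gene positions, exon length and GC content came from GENCODE, for 99.3% of tested genes.

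Alternatives were RLE normalization, library totals alone, no filter, a prior count of 0.5, a replicate block, GC and length offsets, a fit of only the groups compared, DESeq2 1.42.0, and leaving out single libraries or both libraries that stood apart. The named list genes were up to 3 per direction and list, called, with the largest change and at least 5 CPM in 1 group. The members and lists were chosen with earlier results of these data known. The test was checked on simulated data. Some genes that the rules would name are not reported here.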

Additional observations from a re-analysis of the deposited data

Results flagged for a closer look

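MUC1 lay on opposite sides of the vehicle in a pair of groups. Its libraries had 1.63 and 1.71 CPM with Soshiho-tang high and 1.07, 0.821 and 0.468 CPM with Schisandrae Fructus high, against 1.36, 1.09 and 1.11 CPM in the vehicle. Every Soshiho-tang high library was above every vehicle library and every Schisandrae Fructus high library below, where 33.7% of all genes with Soshiho-tang high and 19.8% with Schisandrae Fructus high did not overlap the vehicle. The mean was 1.67 CPM with Soshiho-tang high and 0.785 CPM with Schisandrae Fructus high, and the difference between these groups was not tested. Against the vehicle the estimates were 0.494 (edgeR adjusted p = 0.297) and -0.595 (adjusted p = 0.43). The medium (1.47 to 1.83 CPM) and low (1.81 to 1.88 CPM) doses of Soshiho-tang also lay above every vehicle library. The vehicle values rest on 29 to 40 expected counts per library, and Soshiho-tang high replicate 3 is a library that stood apart.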

How the results depend on the processing

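The counts of called members were 0 higher and 3 lower against the vehicle, 0 higher and 1 lower at the high than the low dose, and 0 between extracts, with 37 calls of list genes against the vehicle, summed over its comparisons. Without the 2 libraries that stood apart they were 1, 9, 3, 2 and 2, with 129 calls of list genes. With GC and length offsets the lower calls between doses were 0, and with these offsets and the replicate block there were 5 lower against the vehicle, 0 lower between doses and 58 calls of list genes. Fitting only the groups compared gave 1 lower against the vehicle and 22 calls of list genes, and DESeq2 gave 1 call between extracts and 59 calls of list genes. Leaving out 1 library at a time gave 0 to 0, 1 to 8, 0 to 3, 0 to 3 and 0 to 1 calls, and 25 to 114 calls of list genes. MUC17 changed sign as single libraries were left out, from -0.121 to 0.755 with Soshiho-tang high against the vehicle, from -0.174 to 0.696 against the low dose, and from -0.62 to 0.249 for Yijin-tang high against Soshiho-tang high. Over all genes, Soshiho-tang high against the vehicle had 1339 calls, 2152 without the 2 libraries and 462 with only the groups compared, Soshiho-tang high against low had 1062, 1360 and 266, Schisandrae Fructus high 117, 1071 and 86, and Longan Arillus low 18, 819 and 4. The cause of these changes was not tested.

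In no comparison did every pair of libraries with the same replicate number deviate together (correlation over 0.1). No pairing by these numbers was thus detected, which cannot exclude shared cultures or handling. A replicate block left the member counts at 0 and 3 against the vehicle, 0 and 1 between doses and 0 between extracts, with 39 calls of list genes. Of 360 values of single libraries under other settings, 354 moved by less than 1 SD of the vehicle and 6, all with library totals alone, by more. MUC4, MUC1 and MUC5B rest on few counts, so smaller differences in them were not detectable at this depth.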
